A study of Homo sapiens with 12 samples.

Results

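The unedited controls of the human acute myeloid leukemia (AML) cell lines MV4-11 and Molm-14 were compared for their miRNAs. The members were chosen by label alone: the 3 MV4-11 EV and the 3 Molm-14 EV libraries, 6 of the 12 libraries in the series, and within them every miRNA that passed a filter on low counts, 575 of the 1204 in the table. EV denotes the Empty Vector, a lentiviral CRISPR/Cas9 construct with a GFP marker and no guide against a human gene, which both lines carried, so neither group was of untransduced cells. The other 6 libraries came from the same lines with MPC1 deleted (MPC1 KO), and they were used only where they are named. Both lines carry the FLT3 internal tandem duplication. Each line stands for 1 patient's leukemia, and whether the 3 libraries of a line came from separate cultures was not given in the sources used here, so the p-values measure the spread between libraries, which may be technical. A line also differs from the other in everything at once, so the donor, the driver lesions, the culture history and the transduction cannot be told apart as the origin of a difference.

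A miRNA is cut from a hairpin precursor whose arms give a 5p and a 3p product, and it pairs with target mRNAs mainly through its seed, the bases after the first. Many human miRNAs have paralogs, copies at other loci that share the seed and so a large part of their targets but are transcribed from different promoters. In myeloid cells miR-223 and miR-142 are lineage miRNAs, miR-155 and the miR-146 pair belong to inflammatory signaling, and in leukemias with a rearranged KMT2A gene the HOX loci and the miRNAs within them are often active. MV4-11 carries the KMT2A-AFF1 fusion and Molm-14 the KMT2A-MLLT3 fusion, from general knowledge of these lines.

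Mature sequences of miRNAs that the comparison turned on are given here from RefSeq (GRCh38.p14), 5′ to 3′, with the seed (bases 2 to 8) in capitals, and they are grouped so that shared and unequal seeds can be seen. The miR-146 pair and the pair miR-152 and miR-148a share a seed within the pair, and the members of each pair differed between the lines in opposite directions. The let-7 members share 1 seed, and some of them differed between the lines by much more than others. miR-99a-5p and the last 4 were among the miRNAs with the largest differences, and miR-99b-5p is shown beside miR-99a-5p for their shared seed.
miR-146a-5p: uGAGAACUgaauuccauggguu
miR-146b-5p: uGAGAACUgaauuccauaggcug
miR-152-3p: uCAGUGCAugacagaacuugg
miR-148a-3p: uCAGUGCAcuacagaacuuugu
miR-23a-3p: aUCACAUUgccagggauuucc
miR-23b-3p: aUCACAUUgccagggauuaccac
miR-192-5p: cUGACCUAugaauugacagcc
miR-215-5p: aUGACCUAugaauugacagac
let-7b-5p: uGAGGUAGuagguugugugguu
let-7c-5p: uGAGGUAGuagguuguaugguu
let-7e-5p: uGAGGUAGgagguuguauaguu
let-7g-5p: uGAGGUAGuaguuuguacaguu
let-7i-5p: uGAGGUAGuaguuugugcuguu
miR-99a-5p: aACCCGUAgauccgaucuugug
miR-99b-5p: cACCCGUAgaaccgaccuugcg
miR-10a-5p: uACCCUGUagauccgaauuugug
miR-224-5p: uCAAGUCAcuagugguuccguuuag
miR-452-5p: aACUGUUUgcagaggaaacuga
miR-4473: cUAGUGCUcuccguuacaagua

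Library totals ran from 3870104 to 8683456 counts, 984 to 1057 miRNAs were detected per library, and no less than 99.96% of a library's counts fell on the 575 tested miRNAs. Of the remaining miRNAs, 600 had a count but did not pass the filter and 29 had none. Levels are given as CPM, counts per 1e6 of the library's TMM-scaled total. Across miRNAs, log2 CPM correlated at r = 0.993 to 0.996 between libraries of a line and at 0.895 to 0.899 between libraries of different lines, which describes these libraries and is no test. The lineage labels were checked against markers: chrX:66018870-66018979 holds the hairpin of miR-223-3p, which had 3221 ± 187 CPM in MV4-11 and 2667 ± 56.9 CPM in Molm-14 (SD, n = 3), and miR-142-3p had 21008 ± 1003 CPM in MV4-11 and 41525 ± 2718 CPM in Molm-14. In bulk libraries, fewer cells that make a miRNA and less of it in each cell cannot be told apart.

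The lines differed in most of the miRNAs tested. By edgeR's quasi-likelihood test, 363 of the 575 (63.1%) were past an adjusted p of 0.05, with 172 (29.9%) higher in MV4-11 and 191 (33.2%) higher in Molm-14, and 212 were not past it. With a difference of at least 2-fold as well, 227 (39.5%) remained, 114 (19.8%) higher in MV4-11 and 113 (19.7%) higher in Molm-14. The libraries of the lines did not overlap for 378 (65.7%). The median log2 fold change, here always MV4-11 over Molm-14, was -0.07 over all miRNAs tested. The differences reached from abundant miRNAs to ones that 1 line nearly lacked, as the plot of line means shows.

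**Figure D1:**
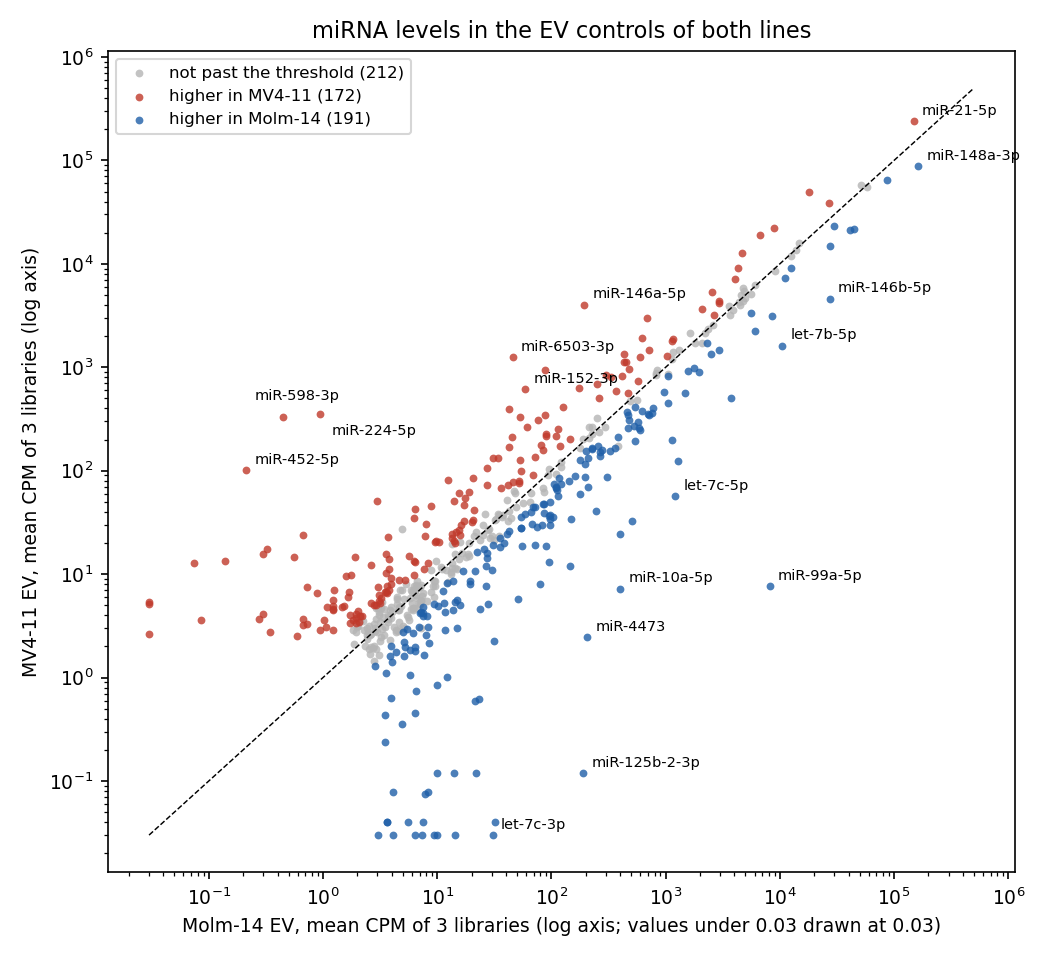
Mean level of each of the 575 tested miRNAs in the 3 Molm-14 EV libraries (x axis, CPM, log scale) and the 3 MV4-11 EV libraries (y axis, CPM, log scale), colored by edgeR's call at an adjusted p of 0.05. The 172 miRNAs higher in MV4-11 lie above the dashed line of equality and the 191 higher in Molm-14 below it. miR-598-3p and miR-99a-5p are among those farthest from it.

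The largest differences toward MV4-11 were in miRNAs that Molm-14 held at a few counts. miR-598-3p had 2355, 1566 and 1509 counts in MV4-11 and 2, 2 and 2 in Molm-14. The ratio of its summed counts, scaled for library size, was 722.5 (exact 95% counting interval 332 to 1970, adjusted p = 2.75e-13 from edgeR). miR-224 and miR-452 are neighbors on the X chromosome, MIR224 at chrX:151958578-151958658 and MIR452 at chrX:151959628-151959712, both on the minus strand and overlapping exons of GABRE, a GABA receptor subunit gene. miR-224-5p had 386, 334 and 332 CPM in MV4-11 and 0.382, 1.29 and 1.12 CPM in Molm-14, a difference of 384-fold (95% confidence interval 269 to 547, adjusted p = 2.77e-13). miR-452-5p had 804, 495 and 401 counts in MV4-11 and 1, 0 and 2 in Molm-14, a ratio of 452 (exact 95% counting interval 154.5 to 2196, adjusted p = 7.74e-12). miR-452-3p, the other arm, had 99, 63 and 52 counts in MV4-11 and 0, 0 and 1 in Molm-14. All tested arms of this cluster, 3 of 3, were thus higher in MV4-11, and no Molm-14 library held more than 5 counts of any of them.

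Other large differences toward MV4-11 were in miRNAs that both lines expressed. miR-6503-3p, from an intron of MS4A4E at chr11:60209071-60209156 (minus strand), had 1299, 1213 and 1263 CPM in MV4-11 and 38.8, 51.8 and 46.6 CPM in Molm-14, a difference of 27.6-fold (95% confidence interval 22.5 to 33.8, adjusted p = 2.77e-13), and its other arm miR-6503-5p, with 49.2, 51.9 and 52.6 CPM in MV4-11 and 3.44, 2.59 and 2.92 CPM in Molm-14, was higher by 16.9-fold (95% confidence interval 12.4 to 23, adjusted p = 3.04e-10). miR-146a-5p, which restrains NF-kB signaling by targeting IRAK1 and TRAF6, had 4306, 4021 and 3764 CPM in MV4-11 and 198, 178 and 204 CPM in Molm-14. It was higher by 20.8-fold (95% confidence interval 17.3 to 25.1, adjusted p = 2.77e-13). miR-328-3p, from chr16:67202321-67202395, had 992, 872 and 974 CPM in MV4-11 and 96.9, 79.2 and 90 CPM in Molm-14. It was higher by 10.7-fold (95% confidence interval 8.86 to 12.8, adjusted p = 5.89e-12), with all MV4-11 libraries above all Molm-14 libraries. miR-152-3p, from an intron of COPZ2 at chr17:48037161-48037247, had 585, 637 and 614 CPM in MV4-11 and 53.5, 53.4 and 70.2 CPM in Molm-14. The lines were far apart, and the fitted difference was 10.4-fold (95% confidence interval 8.45 to 12.7, adjusted p = 1.84e-11). miR-760 had 414, 369.8 and 389 CPM in MV4-11 and 45.7, 43.2 and 38.9 CPM in Molm-14, a difference of 9.16-fold (95% confidence interval 7.57 to 11.1, adjusted p = 1.75e-11). miR-4664-3p had 84.9, 78.8 and 80.9 CPM in MV4-11 and 12.4, 12.4 and 12.4 CPM in Molm-14, a difference of 6.57-fold (95% confidence interval 5.19 to 8.31, adjusted p = 1.51e-09). The libraries of the lines did not overlap for any of these, as the naming rule required.

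By the naming rule, miR-125b-2-3p and miR-99a-5p had the largest differences toward Molm-14, and both came from 1 stretch of chromosome 21. The long noncoding gene MIR99AHG holds MIR99A at chr21:16539089-16539169, MIRLET7C at chr21:16539828-16539911 and MIR125B2 at chr21:16590237-16590325, all on the plus strand. miR-99a-5p, of a family that targets MTOR and IGF1R, had 3.98, 8.54 and 10.4 CPM in MV4-11 and 7098, 10050 and 7207 CPM in Molm-14, a difference of 1132-fold (95% confidence interval 647 to 1982, adjusted p = 1.06e-08). miR-125b-2-3p had 1, 0 and 1 counts in MV4-11 and 993, 728 and 845 in Molm-14, a ratio of 1607 (exact 95% counting interval 444 to 13280, adjusted p = 2.77e-13). let-7c-5p had 53.1, 59.3 and 57.4 CPM in MV4-11 and 1279, 1111 and 1243 CPM in Molm-14, a difference of 21.4-fold (95% confidence interval 17.8 to 25.8, adjusted p = 2.77e-13). let-7c-3p, from the same hairpin, had no count in any MV4-11 library and was at least 174-fold higher in Molm-14. It was the minor arm, with 168, 115 and 133 counts in Molm-14 beside 6696, 4289 and 5525 of let-7c-5p. The sequence of let-7b-5p is nearly that of let-7c-5p. Whether reads of let-7b-5p had a part in the let-7c-5p counts of MV4-11 was not tested. Summed over MIR99A and MIRLET7C, the 4 tested arms reached 64.2 ± 6.22 CPM in MV4-11 and 9367 ± 1585 CPM in Molm-14 (SD, n = 3), and 4 of 4 were called.

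miR-4473 was the next largest after miR-125b-2-3p and miR-99a-5p among miRNAs with at least 50 CPM in the higher line. Its hairpin lies at chr9:20411148-20411238 on the minus strand, in an intron of MLLT3, the gene that is fused to KMT2A in Molm-14. It had 2.65, 1.35 and 3.32 CPM in MV4-11 and 175, 247 and 194 CPM in Molm-14, a difference of 82.3-fold (95% confidence interval 57.4 to 118, adjusted p = 8.73e-12). Whether the fusion had a part in this difference was not tested. miR-10a-5p, from chr17:48579838-48579947 in an intron of HOXB3, had 7.12, 6.51 and 8.06 CPM in MV4-11 and 390.5, 390 and 410.5 CPM in Molm-14, and miR-615-3p, from chr12:54033950-54034045 in introns of HOXC genes, had 25.1, 26.1 and 22.5 CPM in MV4-11 and 447, 412 and 347 CPM in Molm-14. These were higher in Molm-14 by 54.9-fold (95% confidence interval 43.9 to 68.7, adjusted p = 2.75e-13) and by 16.3-fold (95% confidence interval 13.1 to 20.3, adjusted p = 5.89e-12). Both kept a low level in all MV4-11 libraries. miR-584-5p had 9.77, 13.2 and 13.3 CPM in MV4-11 and 144, 143 and 146 CPM in Molm-14, a difference of 12.1-fold (95% confidence interval 9.46 to 15.5, adjusted p = 8.64e-11). miR-455-3p, from an intron of the collagen gene COL27A1, had 122, 126 and 125 CPM in MV4-11 and 1130, 1444 and 1271 CPM in Molm-14, a difference of 10.3-fold (95% confidence interval 8.57 to 12.4, adjusted p = 5.96e-12), and its other arm miR-455-5p moved with it (log2 fold change -2.87). The minor arms of the let-7 family members let-7b and let-7a completed the set. let-7b-3p had 28.6, 31.4 and 38.2 CPM in MV4-11 and 531, 493 and 510.2 CPM in Molm-14, a difference of 15.7-fold (95% confidence interval 12.8 to 19.4, adjusted p = 4.91e-12), and let-7a-3p had 8.8, 6.96 and 8.06 CPM in MV4-11 and 77.4, 86.8 and 76.5 CPM in Molm-14, a difference of 9.96-fold (95% confidence interval 7.67 to 12.9, adjusted p = 4.68e-10). For each of them the 3 Molm-14 libraries were above the 3 MV4-11 libraries, which the naming rule required of the set.

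**Figure D2:**
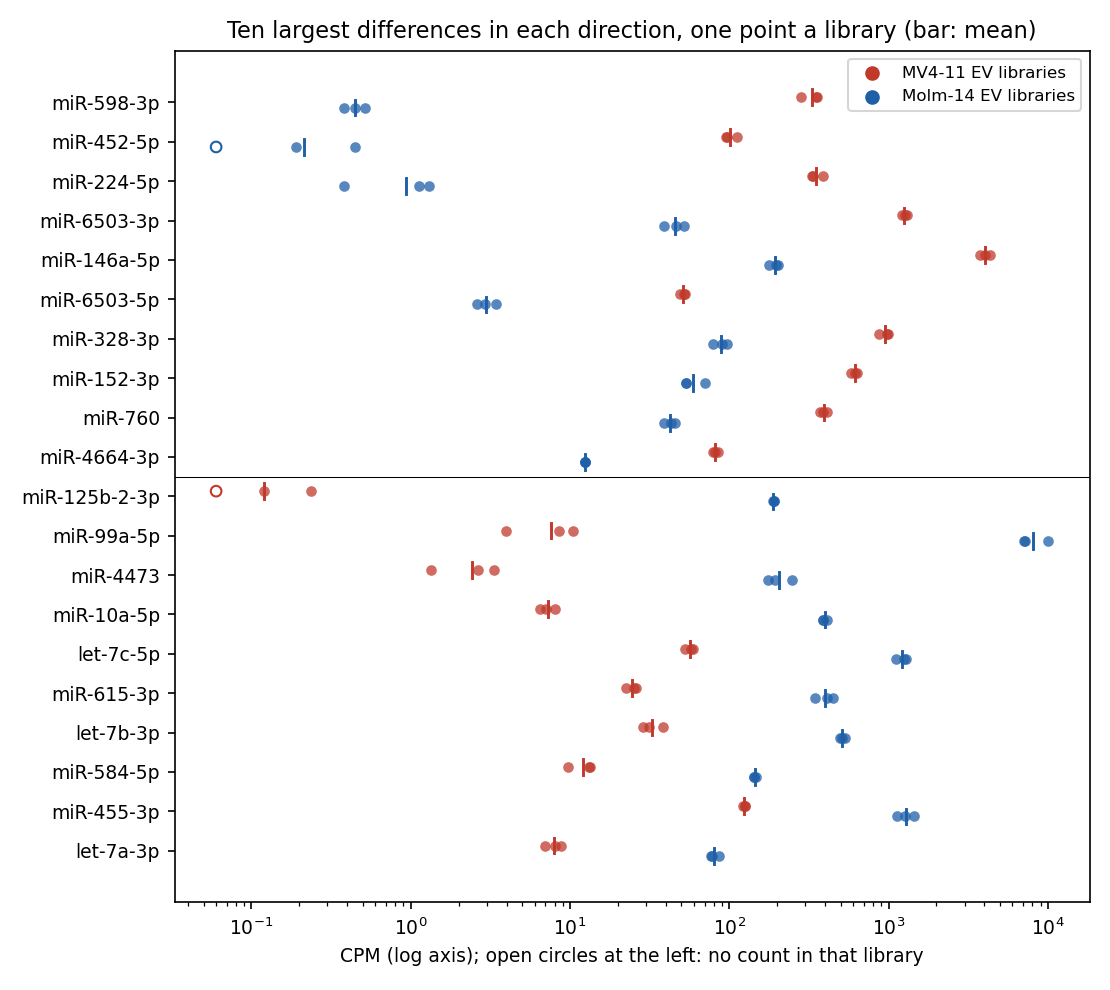
Level of the 10 miRNAs with the largest difference in each direction, by the naming rule, in each EV library (x axis, CPM, log scale), with a bar at the mean of the 3 libraries of a line and open circles for libraries with no count. The lines are separated for all 20, as the rule required, and within a line the libraries lie close together, with miR-99a-5p in MV4-11 between 3.98 and 10.4 CPM and in Molm-14 between 7098 and 10050 CPM.

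The most abundant miRNAs differed less. miR-21-5p, an anti-apoptotic miRNA that is high in many cancers, was the most abundant in MV4-11, with 240760 ± 20043 CPM in MV4-11 and 148370 ± 10004 CPM in Molm-14 (SD, n = 3; log2 fold change 0.70 with an SE of 0.12, adjusted p = 8.74e-05). miR-148a-3p had the highest mean in Molm-14, with 87318 ± 5659 CPM in MV4-11 and 161350 ± 29748 CPM in Molm-14 (log2 fold change -0.89 with an SE of 0.14, adjusted p = 4.22e-05). The order of these in Molm-14 rested on replicate 2, with 193300 CPM of miR-148a-3p and 136900 of miR-21-5p. In replicate 1 miR-21-5p was higher (153000 against 134400 CPM), and in replicate 3 they were close (155200 against 156400). Between the lines, the libraries did not overlap for either miRNA. Among the other miRNAs that ranked in the first 10 of a line, miR-30d-5p (log2 fold change 1.44), miR-27a-3p (1.32) and miR-155-5p (0.52) were higher in MV4-11, and miR-146b-5p (-2.57), miR-20a-5p (-1.02), miR-142-3p (-0.98), miR-17-5p (-0.89), let-7i-5p (-0.44) and miR-25-3p (-0.34) in Molm-14. miR-25-3p lost the call without MV4-11 EV replicate 1 (adjusted p = 0.0586), MV4-11 EV replicate 2 (0.104) or Molm-14 EV replicate 1 (0.0713). let-7g-5p and miR-191-5p did not pass the test, with a difference between -0.32 and 0.14 for let-7g-5p and between -0.06 and 0.44 for miR-191-5p (log2, 95% confidence interval).

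Lineage and inflammatory miRNAs went both ways. Of the 12 tested, 5 were higher in MV4-11, 4 in Molm-14 and 3 were not past the threshold, beside 29.9% and 33.2% of all miRNAs. miR-142-3p, of blood cells in general, was lower in MV4-11 by 0.98 on the log2 scale (adjusted p = 1.57e-06), and miR-223-3p, a granulocyte and monocyte miRNA, was higher by 0.27 (adjusted p = 0.0325). miR-155-5p had 48210, 36240 and 32100 CPM in MV4-11 and 25350, 26600 and 29370 CPM in Molm-14. Its lowest MV4-11 library was above its highest Molm-14 library, by less than the range within MV4-11.

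The miR-146 pair showed a wide split within a seed. miR-146a-5p stems from MIR146A at chr5:160485352-160485450 and miR-146b-5p from MIR146B at chr10:102436512-102436584. miR-146b-5p had 5878, 4324 and 3588 CPM in MV4-11 and 28770, 21990 and 31190 CPM in Molm-14, a difference of 5.94-fold (95% confidence interval 4.47 to 7.9, adjusted p = 1.2e-07) toward Molm-14. miR-146a-5p therefore made up 42.3%, 48.2% and 51.2% of the pair's counts in the MV4-11 libraries and 0.683%, 0.805% and 0.649% in the Molm-14 libraries. Summed over the pair, Molm-14 had 27510 ± 4782 CPM and MV4-11 8627 ± 1437 CPM (SD, n = 3), so the shared seed was 3.19-fold more abundant in Molm-14, opposite to miR-146a-5p. The passenger arms followed their hairpins: miR-146a-3p was higher in MV4-11 (log2 fold change 4.57) and miR-146b-3p in Molm-14 (-2.84).

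Some other seeds were split as well. Of 39 seeds that 2 or more tested miRNAs share, 7, the miR-146 seed among them, had called members in both directions. Of all miRNAs, 29.9% were called toward MV4-11 and 33.2% toward Molm-14. Whether shared seeds were split more often than unrelated miRNAs was not tested. miR-152-3p was higher in MV4-11, but it made up 0.699% ± 0.0714 of the counts of miR-152-3p and miR-148a-3p there (SD, n = 3), so the seed sum of the family, 94120 ± 5424 CPM in MV4-11 and 167500 ± 29620 CPM in Molm-14, followed miR-148a-3p. Of the 6 tested products of the miR-148 and miR-152 hairpins, 2 were higher in each line, close to the shares of all miRNAs. miR-192-5p had 329, 327 and 339 CPM in MV4-11 and 47.6, 58 and 53.1 CPM in Molm-14 (log2 fold change 2.65 with an SE of 0.13, adjusted p = 1.45e-10), whereas miR-215-5p, with the same seed, was higher in Molm-14 (log2 fold change -0.72 with an SE of 0.23, adjusted p = 0.0155). At this seed the abundant member set the sum, 339 ± 7.63 CPM in MV4-11 and 64.0 ± 4.35 CPM in Molm-14. For miR-23, miR-27 and miR-24 the split followed the cluster. The MIR23A cluster on chromosome 19 (chr19:13836287-13836659), which PU.1 activates in myeloid cells, had 5 of 5 tested arms higher in MV4-11, and the MIR23B cluster on chromosome 9 (chr9:95085208-95086088) had 0 of 5 higher in MV4-11 and 2 higher in Molm-14. miR-23a-3p had 4112, 4499 and 4387 CPM in MV4-11 and 2885, 2865 and 2975 CPM in Molm-14, and miR-23b-3p had 274, 264 and 239 CPM in MV4-11 and 455, 464 and 482 CPM in Molm-14. Neither overlapped between the lines, and they moved in opposite directions (log2 fold changes 0.58 and -0.85). Over the 11 listed products of both clusters, 6 were higher in MV4-11 and 2 in Molm-14, and without Molm-14 EV replicate 3 the former fell to 3, with miR-27a-5p at an adjusted p of 0.0590.

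For the miR-181 genes, which act in hematopoietic differentiation, a division by locus was seen in 3p arms. miR-181a-5p, which hairpins on chromosomes 1 and 9 can both give, had at most 7 counts in a library and was not tested. With the counting of reads that match several loci not given, these low counts may not describe the cells. miR-181a-3p and miR-181b-3p, from the chromosome 1 copies, were higher in MV4-11 (log2 fold changes 1.65 and 1.95), and miR-181a-2-3p, from chromosome 9, was higher in Molm-14 (-0.62). Its chromosome 9 neighbor miR-181b-2-3p did not pass the test (-0.42). miR-181a-3p had 1210, 1424 and 1419 CPM in MV4-11 and 428, 416 and 443 CPM in Molm-14, and miR-181a-2-3p had 307, 293 and 328 CPM in MV4-11 and 518, 433 and 474 CPM in Molm-14. The first made up 79.75%, 82.9% and 81.2% of the summed counts of both in the MV4-11 libraries and 45.25%, 49.0% and 48.3% in the Molm-14 libraries. miR-181b-5p, which both loci can give, was higher in MV4-11 (log2 fold change 1.72, adjusted p = 0.0124), a call lost without Molm-14 EV replicate 1 (adjusted p = 0.0552). Of the 7 tested members, 3 were higher in MV4-11 and 2 in Molm-14, beside 29.9% and 33.2% of all miRNAs. The 2 toward Molm-14 fell to 1 when MV4-11 EV replicate 1 or Molm-14 EV replicate 1 was left out.

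**Figure D3:**
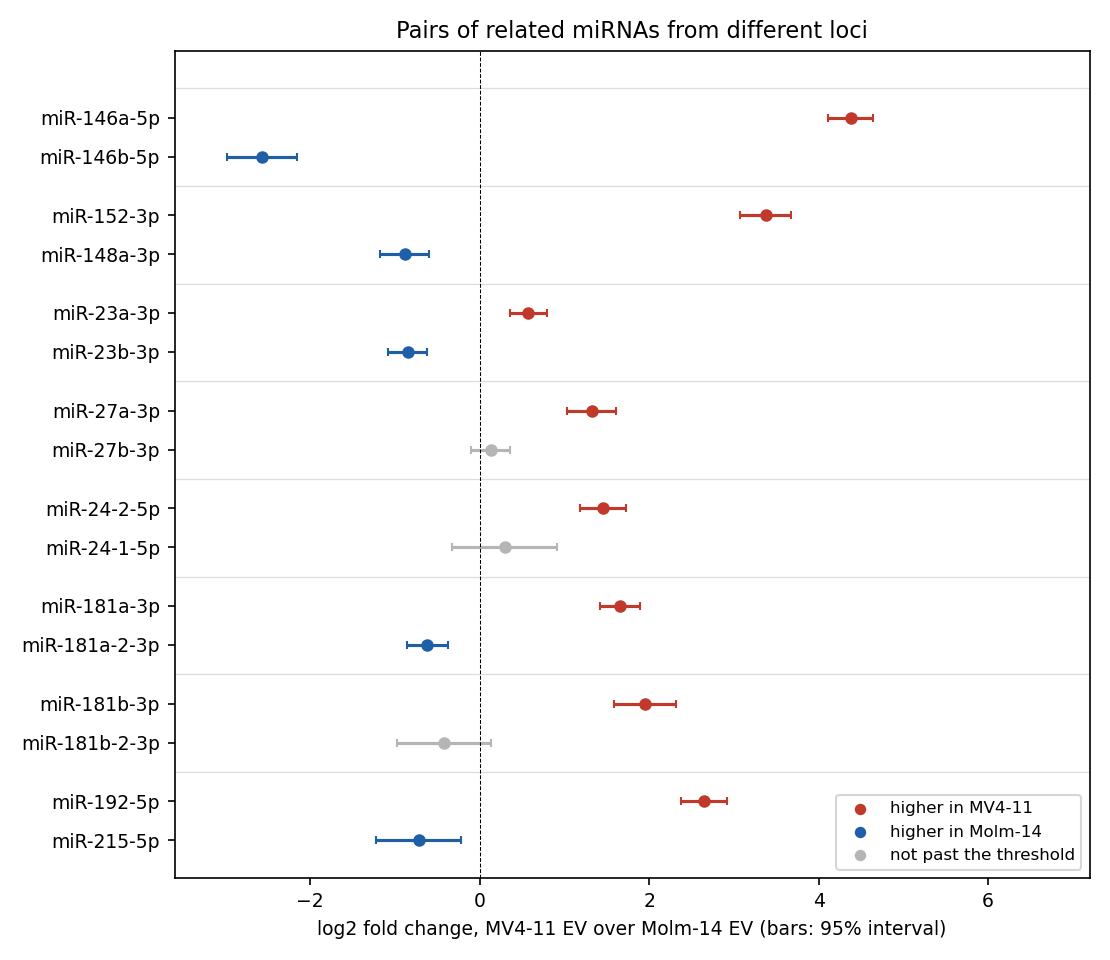
Log2 fold change of MV4-11 EV over Molm-14 EV (x axis) with its 95% confidence interval from edgeR for 8 pairs of related miRNAs that come from different loci. miR-146a-5p lies at 4.38 and miR-146b-5p at -2.57, and miR-152-3p at 3.37 and miR-148a-3p at -0.89. The intervals of miR-27b-3p, miR-24-1-5p and miR-181b-2-3p include 0.

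HOX cluster miRNAs were split between loci. These miRNAs lie among the homeobox genes that set body axis and, in blood, stem and progenitor state. Of 8 tested, 6 were higher in Molm-14 and none in MV4-11, beside 33.2% and 29.9% of all miRNAs. The median log2 fold change was -3.84, beside -0.07 over all miRNAs. miR-10b-5p, from an intron of HOXD3 at chr2:176150303-176150412, had 0.482, 1.12 and 0.948 CPM in MV4-11 and 11.3, 9.84 and 8.77 CPM in Molm-14. These were 59, 38 and 39 counts in Molm-14, beside 2044, 1506 and 1825 of miR-10a-5p. Whether reads of miR-10a-5p had a part in the miR-10b-5p counts was not tested. As counted, miR-10b-5p, miR-10a-5p of the HOXB cluster and miR-615-3p of the HOXC cluster were each over 10 times as high in Molm-14 as in MV4-11. In contrast, miR-196b-5p, which overlaps an exon of HOXA9 at chr7:27169480-27169563 and is high in leukemias with a rearranged KMT2A, had 2284, 2004 and 2120 CPM in MV4-11 and 2101, 2344 and 2159 CPM in Molm-14, with a log2 difference between -0.27 and 0.18 (95% confidence interval). miR-196a-5p, which has loci in both the HOXB and the HOXC cluster, was called at the margin (log2 fold change -0.62 with an SE of 0.26, adjusted p = 0.0463) and lost the call without any single library other than MV4-11 EV replicate 1 (adjusted p up to 0.223). In the MPC1 KO libraries its difference was in the other direction (2.04).

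The families of miR-99/100 and miR-125 and their let-7 neighbors were higher in Molm-14 throughout: 13 of 13 tested, beside 33.2% of all miRNAs, with a median of -3.05. Human cells hold 3 such clusters. Beside the chromosome 21 cluster above, the chromosome 19 cluster of MIR99B, MIRLET7E and MIR125A (chr19:51692612-51693339) had 6 of 6 tested arms higher in Molm-14, but by less: miR-99b-5p had 368, 361 and 365 CPM in MV4-11 and 808, 725 and 734 CPM in Molm-14, miR-125a-5p had 289.8, 209.8 and 238 CPM in MV4-11 and 665, 498 and 628 CPM in Molm-14, and let-7e-5p had 88.4, 84.9 and 89.9 CPM in MV4-11 and 326, 274 and 323 CPM in Molm-14. miR-100-5p of chromosome 11 was higher by 1.62-fold (95% confidence interval 1.31 to 2, adjusted p = 0.000577). Summed over the shared seed, miR-99a-5p, miR-99b-5p and miR-100-5p reached 417 ± 6.62 CPM in MV4-11 and 8947 ± 1648 CPM in Molm-14. miR-99a-5p was 2.05% ± 0.883 of the summed counts of miR-99a-5p and miR-99b-5p in MV4-11 and 91.3% ± 1.80 in Molm-14 (SD, n = 3).

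let-7 miRNAs repress RAS and other growth genes and rise with differentiation. Another 15 let-7 products were tested, let-7a-5p among them, although 1 of its loci lies beside miR-100 on chromosome 11. Of the 15, 7 were higher in Molm-14 and 1 in MV4-11, beside 33.2% and 29.9% of all miRNAs, and 7 were not past the threshold. let-7b-5p, from chr22:46113686-46113768, had 1562, 1638 and 1643 CPM in MV4-11 and 10910, 9825 and 10470 CPM in Molm-14, a difference of 6.44-fold (95% confidence interval 5.47 to 7.59, adjusted p = 1.84e-11). let-7i-5p and let-7g-5p supplied 91.0% ± 0.281 of the counts with the let-7 seed in MV4-11 and 88.0% ± 0.402 in Molm-14, and the seed summed to 131100 ± 4495 CPM and 165600 ± 5179 CPM, a ratio of 1.26 toward Molm-14. let-7a-5p, let-7b-5p, let-7c-5p and let-7e-5p together were 1.38% ± 0.0784 of these counts in MV4-11 and 7.34% ± 0.233 in Molm-14 (SD, n = 3). These sums and shares hold let-7a-5p (3 loci, 41.0 CPM in MV4-11 and 248 CPM in Molm-14) and let-7f-5p (2 loci, 945 and 845 CPM). How reads that match several loci were counted was not given, so the shares describe the counts and may not describe the cells. let-7d-5p did not pass the test (log2 fold change 0.17 with an SE of 0.10, adjusted p = 0.171).

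The miR-17-92 cluster on chromosome 13, which MYC activates, had 11 of 12 listed and tested products higher in Molm-14, beside 33.2% of all miRNAs. Their median was -0.96. miR-20a-5p had 23960, 22950 and 18650 CPM in MV4-11 and 46770, 36910 and 49650 CPM in Molm-14, and the lines did not overlap. miR-92a-3p and miR-19b-3p also have a locus on the X chromosome. Without them, the 10 other tested products (chr13:91350605-91351391) summed to 40040 ± 4905 CPM in MV4-11 and 77320 ± 10300 CPM in Molm-14 (SD, n = 3). The paralog clusters of miR-17-92 followed to unequal extents. The miR-106a-363 cluster had 3 of 3 in the same direction at low levels (sum 33.6 ± 8.67 and 72.3 ± 9.39 CPM). The miR-106b-25 cluster had 3 of 6, with miR-93-5p (log2 fold change -0.08) and miR-106b-5p (-0.09) not past the threshold, and 1 of 6 without MV4-11 EV replicate 1, MV4-11 EV replicate 2 or Molm-14 EV replicate 1. Of the tested products of the miR-15/16 family, 7 of 10 were higher in Molm-14, led by miR-16-2-3p among the abundant ones (1495, 1448 and 1478 CPM in MV4-11 and 3206, 2700 and 2857 CPM in Molm-14). Its seed is not that of the 5p arms, through which the family limits BCL2 and cyclins. With that 5p seed, 4 of 6 were higher in Molm-14, but miR-15b-5p (log2 fold change 0.04) and miR-15a-5p (-0.16) did not pass. The 5p seed summed to 1198 ± 88.3 CPM in MV4-11 and 1357 ± 116 CPM in Molm-14 (SD, n = 3). This sum holds miR-16-5p, which has 2 loci and had only 14.2 CPM in MV4-11 and 27.2 CPM in Molm-14. Since the counting of reads that match several loci was not given, the sum may not describe the cells. The cluster of miR-424 and miR-503 on the X chromosome had 6 of 8 higher in Molm-14, miR-503-5p by 2.25-fold (95% confidence interval 1.92 to 2.63, adjusted p = 1.87e-07), and the miR-183 cluster 3 of 3, miR-96-5p by 5.15-fold (95% confidence interval 3.76 to 7.05, adjusted p = 1.71e-07). In smaller lists, beside 33.2% of all miRNAs, 3 of 6 tested miR-29 products, 3 of 3 of miR-193 and miR-365, 4 of 5 of miR-28, miR-151a and miR-708, and 2 of 4 of miR-126 and miR-9 were higher in Molm-14. Without Molm-14 EV replicate 3, miR-193a-3p and miR-365b-5p lost their calls (adjusted p = 0.0810 and 0.0904), which left 1 of 3. Without Molm-14 EV replicate 1, miR-28-5p and miR-151a-5p lost theirs (adjusted p = 0.167 and 0.0552), and 1 call of that list remained. Without Molm-14 EV replicate 2, the list of miR-126 and miR-9 had 1 call toward MV4-11, miR-126-3p (adjusted p = 0.00131).

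Other clusters were higher in MV4-11, the line in which 29.9% of all miRNAs were higher. miR-221 and miR-222, which target KIT and the cell cycle inhibitor p27, had 4 of 4 arms higher in MV4-11. miR-221-3p had 20880, 19030 and 16600 CPM in MV4-11 and 6963, 6182 and 7030 CPM in Molm-14, a difference of 2.8-fold (95% confidence interval 2.35 to 3.34, adjusted p = 4.86e-08), and miR-222-3p differed by 2.71-fold (95% confidence interval 1.88 to 3.92, adjusted p = 0.000498). miR-221-5p lost its call without Molm-14 EV replicate 1 (adjusted p = 0.0637). The miR-30 family had 7 of 10 higher in MV4-11 and 0 in Molm-14. miR-30d-5p had 58220, 47610 and 42310 CPM in MV4-11 and 18590, 15560 and 20290 CPM in Molm-14, and miR-30e-5p did not pass the test (log2 fold change -0.08 with an SE of 0.15, adjusted p = 0.677). The p53-induced miR-34 family had 3 of 3 tested members higher, at log2 fold changes from 0.28 to 1.04. The call of miR-34c-5p was lost without any single library other than MV4-11 EV replicate 3 (adjusted p = 0.0548 to 0.0938), and 1 call of the family remained without MV4-11 EV replicate 2, Molm-14 EV replicate 1 or Molm-14 EV replicate 2. All 3 calls were lost with DESeq2.

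Further clusters, singled out after their values were seen, had wide differences. The hairpins of miR-338 and miR-1250 lie in introns of AATK on chromosome 17 (chr17:81125883-81133308), and 3 of 3 tested arms were higher in MV4-11: miR-338-5p had 18.1, 25.2 and 28.7 CPM in MV4-11 and 0.764, 1.04 and 0.225 CPM in Molm-14, and miR-1250-5p had 84, 92 and 67 counts in MV4-11 and 0, 0 and 4 in Molm-14. miR-374b-5p and miR-421, from 1 cluster on the X chromosome, showed differences of 3.09-fold (95% confidence interval 2.63 to 3.63, adjusted p = 7.26e-09) and 4.13-fold (95% confidence interval 3.39 to 5.03, adjusted p = 4.78e-09) toward MV4-11. miR-301b-3p and miR-130b-3p on chromosome 22 were higher in MV4-11 by 3.3-fold (95% confidence interval 2.42 to 4.52, adjusted p = 4.17e-06) and 1.88-fold (95% confidence interval 1.54 to 2.3, adjusted p = 3.14e-05). Over the genome, 38 groups of neighboring single-locus hairpins (gaps up to 10000 bases) had 2 or more tested hairpins. In 17 of them all tested arms were called in 1 direction, 12 toward MV4-11 and 5 toward Molm-14, and 4 had calls in both directions. Over all single miRNAs, 29.9% were called toward MV4-11 and 33.2% toward Molm-14. Whether the clusters favored a line was not tested.

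**Figure D4:**
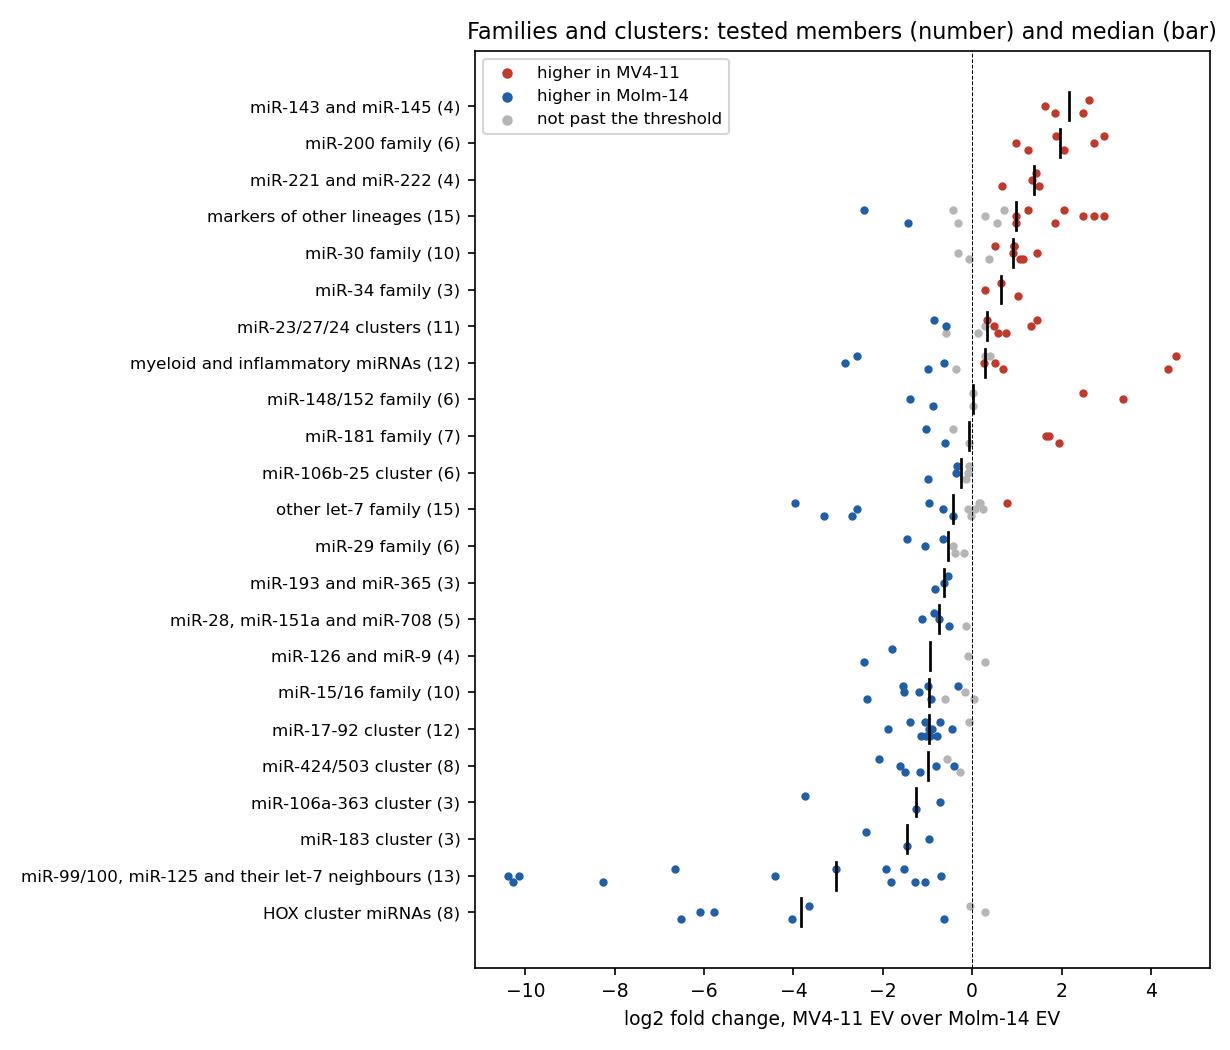
Log2 fold change of MV4-11 EV over Molm-14 EV (x axis) of each tested member of 23 lists of families, clusters and markers, with the number tested beside each name and a bar at the median. The HOX cluster miRNAs have the lowest median, -3.84, and miR-143 and miR-145 the highest, 2.17.

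miRNAs that mark other lineages were present at low to moderate levels and moved with the lines. Of 22 listed markers 20 were in the table and 15 were tested, of which 8 were higher in MV4-11 and 2 in Molm-14, beside 29.9% and 33.2% of all miRNAs. Their summed level was 9712 to 10460 CPM in the MV4-11 libraries and 13090 to 13870 CPM in the Molm-14 libraries, of which miR-126-3p (5823 ± 428 CPM in MV4-11 and 4774 ± 1020.5 CPM in Molm-14) and miR-199b-5p (3121 ± 326 CPM in MV4-11 and 8468 ± 859.9 CPM in Molm-14) were the largest part. The epithelial miR-200 family, which represses ZEB1 and ZEB2, had 6 of 6 tested members higher in MV4-11 with a median of 1.96. miR-200c-3p had 216 ± 20 CPM in MV4-11 and 110.2 ± 8.16 CPM in Molm-14, and miR-200b-3p had 87.1, 89.6 and 80.6 CPM in MV4-11 and 20.6, 15.5 and 25.9 CPM in Molm-14. The mesenchymal miR-143 and miR-145 had 4 of 4 higher in MV4-11, miR-143-3p with 578, 638 and 682 CPM in MV4-11 and 166, 191 and 168 CPM in Molm-14. The miR-199 family, also mesenchymal, went the other way. By edgeR's test, miR-199b-5p (log2 fold change -1.44, adjusted p = 9.18e-08) and the scarce miR-199a-3p (-1.48, adjusted p = 0.00218) were higher in Molm-14. miR-205-5p, an epithelial marker, had no count in any of the 6 libraries, which allows up to 3 counts a library, or 0.345 to 0.775 CPM (counting error only). The neural miR-124-3p had at most 4 counts, the erythroid miR-451a 6 to 33 and the lymphoid miR-150-5p 7 to 18. Whether cells of other types had a part in these differences was not tested. Of the imprinted miRNAs of chromosome 14q32, 11 were in the table with at most 12 counts a library, none was tested, and none of the chromosome 19 placental cluster was in the table.

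Some miRNAs were near the limit of counting in 1 line. Among those tested, 22 had at most 3 counts in every MV4-11 library and 13 in every Molm-14 library. let-7c-3p had 0, 0 and 0 counts in MV4-11 and 168, 115 and 133 in Molm-14. Against 3 counts over the group, it was at least 174-fold higher in Molm-14. miR-6720-3p had 0, 0 and 0 counts in MV4-11 and 77, 62 and 56 in Molm-14, and it was at least 81.4-fold higher in Molm-14. miR-4510 had 1, 0 and 0 counts in MV4-11 and 187, 107 and 145 in Molm-14, a ratio of 549.9 (exact 95% counting interval 98.2 to 21770), and miR-3667-3p had 1, 0 and 1 counts in MV4-11 and 117, 91 and 89 in Molm-14, a ratio of 186 (51.0 to 1543). In the other direction, miR-551a had 120, 73 and 92 counts in MV4-11 and 0, 2 and 2 in Molm-14, a ratio of 56.9 (22.0 to 210.2), and miR-577 had 101, 71 and 51 counts in MV4-11 and 1, 0 and 1 in Molm-14, a ratio of 89.0 (24.4 to 740). Intervals of this kind cover counting error only, and reads are not independent molecules.

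Both arms of a hairpin come from 1 precursor, and their shares were compared by edgeR's test of unequal arm fold changes. Of 138 hairpins with both arms tested, 75 had both arms called in the same direction and 1 in opposite directions. The arm shares differed for 29 hairpins (21.0%), with the 5p share higher in MV4-11 for 17 and in Molm-14 for 12, and the more abundant arm was the same in both lines for all 29. The exception in direction was miR-629, from an intron of TLE3: miR-629-5p had 546, 602 and 569 CPM in MV4-11 and 1000, 983 and 933 CPM in Molm-14 and was higher in Molm-14, while miR-629-3p had 30.1, 32.8 and 37 CPM in MV4-11 and 17, 22.3 and 22.9 CPM in Molm-14 and was higher in MV4-11. The 5p arm made up 94.5% ± 0.526 of the pair's counts in MV4-11 and 97.9% ± 0.378 in Molm-14 (SD, n = 3). For let-7b the 3p arm differed more than the 5p arm, and the 5p share was 98.0% ± 0.252 in MV4-11 and 95.3% ± 0.0794 in Molm-14. let-7c and let-7e moved in the same direction, with 5p shares of 100% and 97.5% ± 0.132 for let-7c, whose 3p arm had no count in MV4-11, and of 99.2% ± 0.277 and 97.9% ± 0.227 for let-7e.

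miR-652 and miR-301b had a larger 5p share in Molm-14. miR-652-3p, the major arm, had 530.2, 604 and 622 CPM in MV4-11 and 346, 417 and 343 CPM in Molm-14, and miR-652-5p had 27.5, 23.6 and 13.3 CPM in MV4-11 and 26.8, 29.5 and 38.2 CPM in Molm-14. The 5p share of miR-652 was 3.59% ± 1.43 in MV4-11 and 7.94% ± 1.83 in Molm-14, and that of miR-301b was 15.7% ± 3.30 and 29.6% ± 4.35. The number of hairpins past the threshold fell when single libraries were left out: to 14 for MV4-11 EV replicate 1, to 19 for MV4-11 EV replicate 2, to 19 for Molm-14 EV replicate 1 and to 9 for Molm-14 EV replicate 3. let-7e lost its call without MV4-11 EV replicate 1 (adjusted p = 0.0687), MV4-11 EV replicate 3 (0.0638) or Molm-14 EV replicate 3 (0.0633), and miR-301b without MV4-11 EV replicate 1 (0.0747) or Molm-14 EV replicate 3 (0.0656).

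**Figure D5:**
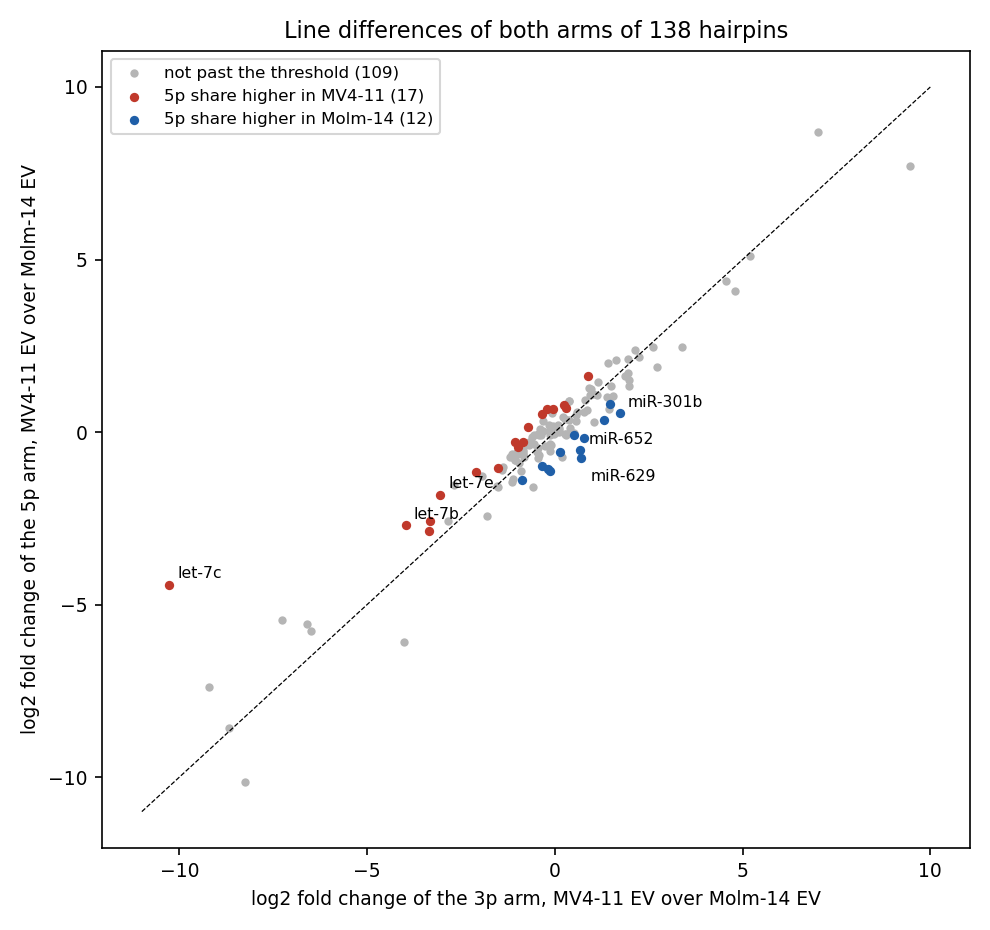
Log2 fold change of MV4-11 EV over Molm-14 EV of the 3p arm (x axis) and the 5p arm (y axis) of each of the 138 hairpins, with the dashed line where both arms differ equally. Most hairpins lie along this line. The 29 past the threshold are colored by the line with the higher 5p share, 17 for MV4-11 and 12 for Molm-14, and let-7c lies farthest from it.

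miRNAs given by more than 1 locus need care. Of the 25 tested, 5 were higher in MV4-11 and 14 in Molm-14, beside 29.9% and 33.2% of all miRNAs. Several had far fewer counts than the opposite arm of 1 of their hairpins: miR-16-5p had 14.2 CPM in MV4-11 and 27.2 CPM in Molm-14, beside 1473 and 2921 CPM of miR-16-2-3p, and miR-24-3p had 3.44 and 2.07 CPM, beside 833 and 303 CPM of miR-24-2-5p. miR-125b-5p had 0.079 and 8.24 CPM, beside 0.119 and 189 CPM of miR-125b-2-3p. These 5p or 3p products are the abundant arms in most human tissues. How reads that match several loci were counted was not given in the sources used here, and its part in the levels of these miRNAs, let-7a-5p, miR-26a-5p and miR-30c-5p among them, was not tested. The fold change had the same sign as that of the opposite arm for let-7a-5p (-2.59 and -3.32) but not for miR-30c-5p (0.93, and -0.31 for miR-30c-1-3p).

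The MPC1 KO libraries of the same lines are separate libraries in which the line difference can be seen again. There, 395 of 609 miRNAs (64.9%) differed between the lines by edgeR's test. Of the 363 called in EV, 353 were tested in MPC1 KO: 306 were called in the same direction, 43 were not called and 4 were called in the opposite direction. Of the 20 miRNAs with the largest differences by the naming rule, 20 were called in the same direction in MPC1 KO. For 3 of them the size differed between EV and MPC1 KO by the interaction test: the log2 fold change went from -5.78 in EV to -4.84 in MPC1 KO for miR-10a-5p, from -4.03 to -3.22 for miR-615-3p and from 4.38 to 4.84 for miR-146a-5p. The chromosome 19 cluster of miR-99b, let-7e and miR-125a did not keep its direction: miR-99b-5p was at 0.78 and miR-125a-5p at 0.52 in MPC1 KO, higher in MV4-11, and let-7e-5p was at 0.05 and not past the threshold. Tested directly in 1 fit of all 12 libraries, the line difference in EV differed from that in MPC1 KO for 44 of 659 miRNAs (6.68%).

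Abundant miRNAs with the smallest differences between the lines were taken by the naming rule from those that did not pass the test. miR-26b-5p had 13539 ± 165 CPM in MV4-11 and 13830 ± 376 CPM in Molm-14 (SD, n = 3), with a log2 difference between -0.25 and 0.19 (95% confidence interval), and miR-423-3p lay between -0.14 and 0.36. miR-93-5p lay between -0.34 and 0.19 and miR-30e-5p between -0.41 and 0.25. For these miRNAs a 2-fold difference lay outside the interval, while a small one did not.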

How the data were processed

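The 6 small RNA libraries of the EV controls were compared, 3 of each line, with groups taken from the labels. The authors deposited a table of read counts per mature miRNA, not normalized, and the submitters' processing notes name STAR 2.5.2, featureCounts 1.5.1 and GRCh38, with no further settings. How reads from several loci were treated is not given in the sources used here. From the deposited counts, miRNAs were kept by edgeR's filterByExpr (minimum count 10), scaled by TMM and tested with edgeR 4.0.16 (quasi-likelihood, robust, R 4.3.3) on the 6 libraries, with Benjamini-Hochberg adjustment over all tested and a threshold of 0.05. Arm usage was tested with edgeR's diffSpliceDGE. Tests were checked on simulated data. Hairpin positions are those of the GENCODE annotation on GRCh38, and mature sequences those of RefSeq. The MPC1 KO line difference and its difference from EV were fitted separately with edgeR, the latter on all 12 libraries.

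The miRNAs named were the 10 with the largest fold change in each direction (non-overlapping libraries, at least 50 CPM in the higher line), the 10 most abundant of each line, the 4 most abundant of each list, the 5 most abundant in 1 line with at most 3 counts in every library of the other in each direction, the 6 hairpins with the largest arm difference, and the 6 most abundant that did not pass with an interval within 0.5 of 0. Other miRNAs named are paralogs, opposite arms or cluster neighbors of these, chosen after their values were seen. The members and lists were chosen with earlier results of these data known. Counts over a list include both arms of a hairpin where both were tested, and these are not independent. Alternatives were DESeq2 1.42.0, limma-voom 3.58.1, other scalings, other filters, a fit of all 12 libraries, a replicate block, a threshold of 0.01, leaving out each library and, chosen after seeing the data, leaving out miRNAs with more than 1 locus. At these depths, 3 counts correspond to 0.345 to 0.775 CPM.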

Additional observations from a re-analysis of the deposited data

Results flagged for a closer look

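For 19 of the miRNAs named, the line difference in EV differed from the line difference in MPC1 KO, tested as an interaction in 1 edgeR fit of all 12 libraries. The value given is the EV difference minus the MPC1 KO difference (log2, MV4-11 over Molm-14), and the EV libraries enter both the differences reported above and these values.

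In the chromosome 19 cluster the value was -1.88 for let-7e-5p, -1.81 for let-7e-3p, -1.81 for miR-125a-5p and -1.85 for miR-99b-5p. Among the HOX cluster miRNAs it was -2.67 for miR-196a-5p, -0.96 for miR-10a-5p and -0.84 for miR-615-3p. It was -0.48 for let-7b-5p and -0.47 for miR-146a-5p, both small beside their EV differences of -2.69 and 4.38.

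Of the mesenchymal miRNAs, miR-143-3p had -0.55 and miR-145-3p -1.53. miR-28-3p had -0.60, miR-629-5p -0.58 and miR-503-5p -0.43. The value was positive for miR-182-5p (0.93), miR-183-5p (1.07), miR-19a-3p (0.60), miR-34c-5p (1.28) and miR-9-3p (1.64).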

How the results depend on the processing

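Of the 363 calls, 287 were kept whichever library was left out, and 285 were kept in these fits and in those with DESeq2, limma-voom, other scalings, no filter, all 12 libraries and the block. None was called in the opposite direction in these fits or with the 100-count filter. The number of calls was 359 of 991 with DESeq2, of which 313 were shared, 361 with limma-voom, 355 to 364 with other scalings, 408 of 659 in the fit of all 12 libraries, 298 at a threshold of 0.01 and 344 without miRNAs of more than 1 locus, and 339 to 368 with a library left out. A mean of at least 100 counts left 280 miRNAs, of which 205 were called, 97 higher in MV4-11 and 108 in Molm-14, and 103 past 2-fold, 59 and 44, since fewer were tested. Without a filter on low counts 475 of 1175 were called, 341 past 2-fold, 172 of these higher in MV4-11, since more were tested. Arm usage calls ranged from 9 to 29 with a library left out, and the cause was not tested. Of the miR-34 family, all 3 calls were lost with DESeq2 and 1 was kept under the block.

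The replicate numbers were not shown to pair the libraries: deviations of same-numbered libraries correlated at 0.0428, -0.0454 and -0.217 and 1 of 6 libraries correlated best with its own number. With the replicate number as a block, 351 miRNAs and 21 hairpins were called, 347 of the miRNAs being shared.

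For named miRNAs, 1968 of 2094 values kept their direction and their side of the threshold, 91 lost the call, 9 gained it and 26 changed sign, all of these in miRNAs near 0 that did not pass. The log2 value of miR-196b-5p was 0.00788 with RLE, 0.0139 with upper-quartile and 0.000207 with total-count scaling and 0.0354 with the 100-count filter, and that of miR-26b-5p 0.0218, 0.0218, 0.0165 and 0.0522. With that filter miR-93-5p had 0.00558 and miR-30e-5p 0.00404. With a library left out, the values ranged from -0.0568 to 0.0664 for miR-196b-5p, -0.0219 to 0.0422 for miR-26b-5p, -0.156 to 0.0369 for miR-93-5p, -0.223 to 0.117 for miR-30e-5p, -0.137 to 0.0457 for miR-106b-5p, -0.203 to 0.0676 for miR-126-5p, -0.185 to 0.0185 for miR-151a-3p, -0.0165 to 0.154 for miR-15b-5p and -0.00389 to 0.114 for miR-148b-3p. Depth limits miRNAs of a few counts, where 3 counts set the floor.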
